A study of Mus musculus with 8 samples.

Results

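The genes described here are 10 components of the Wnt and beta-catenin pathway, the signalling route behind liver zonation: Ctnnb1, Apc, Axin1, Axin2, Lgr4, Lgr5, Rnf43, Znrf3, Tcf7l2 and Nkd1. They were chosen by name from knowledge of the pathway, and every non-control probe whose accession maps to 1 of them was taken. All 10 were on the array, out of 21368 named genes, and they had 15 of its 55681 distinct probes.

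Wnt proteins bind Frizzled receptors with the co-receptors Lrp5 and Lrp6, and this stops a complex built on Apc and Axin1 from marking beta-catenin, the product of Ctnnb1, for destruction. The beta-catenin that escapes enters the nucleus and activates genes together with TCF factors such as Tcf7l2, among them the feedback inhibitors Axin2, Nkd1, Rnf43 and Znrf3. In the liver, Wnt and R-spondin proteins made by endothelial cells around the central veins keep the pathway active in the nearest hepatocytes, which express pericentral genes such as Glul, while hepatocytes near the portal veins express a different, periportal set.

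The study examined what the cannabinoid 1 receptor of hepatocytes, encoded by Cnr1, does in liver injury, and measured RNA of hepatocytes isolated from 4 hCNR1+/+ and 4 hCNR1-/- male mice, 12 to 14 weeks old, on a standard diet and untreated. Both genotypes were littermates bred from CNR1flox/flox mice and mice with Cre recombinase under the albumin promoter, which is active in hepatocytes, so the deletion was meant for hepatocytes and not for the other liver cells. The strain was labelled CNRO for hCNR1+/+ and CNRO Alb-Cre for hCNR1-/- mice, so the loss of Cnr1 and the presence of Cre cannot be told apart. On 0 of 4 hCNR1+/+ and 0 of 4 hCNR1-/- arrays was the Cnr1 probe well above background, and the genotype of each array rests on its label.

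Each RNA was labelled with 1 dye and hybridised to an Agilent array, on which a probe is a short DNA strand fixed to a spot and the brightness of the spot measures its RNA. A signal is given here as log2 of the spot intensity minus log2 of the 75th percentile of all non-control spots of that array, so that 0 is the 75th percentile and a difference of 1 is a doubling. Where single values are listed, they stand in the order of replicates 1 to 4 of the genotype. This percentile ran from 62.0 to 139 in intensity units on the hCNR1+/+ arrays and from 29.3 to 124 on the hCNR1-/- arrays, with 35.0% to 42.3% and 28.6% to 39.3% of spots well above background. The dimmest array was hCNR1-/- replicate 4, which correlated with its own group at a mean of 0.942 over the tested genes, against 0.964 to 0.980 for the other 7 arrays. The arrays shared 1 slide, with hCNR1+/+ in 1 row and hCNR1-/- in the other, and the row and the genotype cannot be told apart. Hepatocyte markers were measured for 15 of 15 genes, with a summed log2 signal of 14.0 to 14.7 in hCNR1+/+ and 14.2 to 15.4 in hCNR1-/- preparations. Their median log2 fold change, hCNR1-/- over hCNR1+/+, was 0.42 beside 0.08 over all tested genes, with 6 below 0 and 9 above. At an adjusted p below 0.05 limma called 1 higher, Apob (log2 fold change 1.63, adjusted p = 0.0477), beside 2.94% of all tested genes. The Kupffer cell list had 14 markers, of which 12 were tested. All 12 had a log2 fold change below 0, where 43.4% of all tested genes did. Their summed signal was 6.48 to 7.48 in hCNR1+/+ and 5.74 to 6.21 in hCNR1-/- preparations, which do not overlap. In such bulk RNA, fewer cells of a type and less RNA per cell cannot be told apart. The p-values measure the spread between these 4 and 4 mice, whose number limits the precision.

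Of the 10 pathway members 4 were not measured on any array and 1 was measured on a single array, and several classical target genes of the pathway were among them. A probe counted as measured on an array where the scanner software called it well above background, and it was tested where this held on 4 or more arrays, which 6 of the 15 probes, of 5 genes, met. Ctnnb1, Axin1, Rnf43, Znrf3 and Tcf7l2 were the genes tested. Apc, the scaffold of the destruction complex, had 2 probes. Axin2 and Nkd1, feedback inhibitors that the pathway itself induces, had 2 probes each, and Lgr5, a receptor for R-spondins and a target of the pathway, had 1. Each of these 7 probes was measured on 0 of 8 arrays. The probe of Lgr4, a second R-spondin receptor that hepatocytes are known to use, was measured on 1 of 4 hCNR1+/+ and 0 of 4 hCNR1-/- arrays. No difference between the genotypes is given for these 5 genes.

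The signals of the unmeasured probes lay far down the scale. The Apc probes read from -5.36 to -2.63 in hCNR1+/+ and from -4.81 to -2.54 in hCNR1-/- mice. For Axin2 the range was -5.41 to -3.93 in hCNR1+/+ and -5.03 to -2.60 in hCNR1-/- mice. Lgr5 read from -5.36 to -4.03 and from -5.11 to -2.94 in the same order. In 6 of the 7 probes of Apc, Axin2, Lgr5 and Nkd1, hCNR1-/- replicate 4 had the highest value of all 8 arrays, which is also the array with the smallest 75th percentile to subtract. Nkd1 read from -4.83 to -3.03 in hCNR1+/+ and from -4.99 to -2.35 in hCNR1-/- mice, and Lgr4 from -3.56 to -2.84 and from -4.74 to -2.90.

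**Figure D1:**
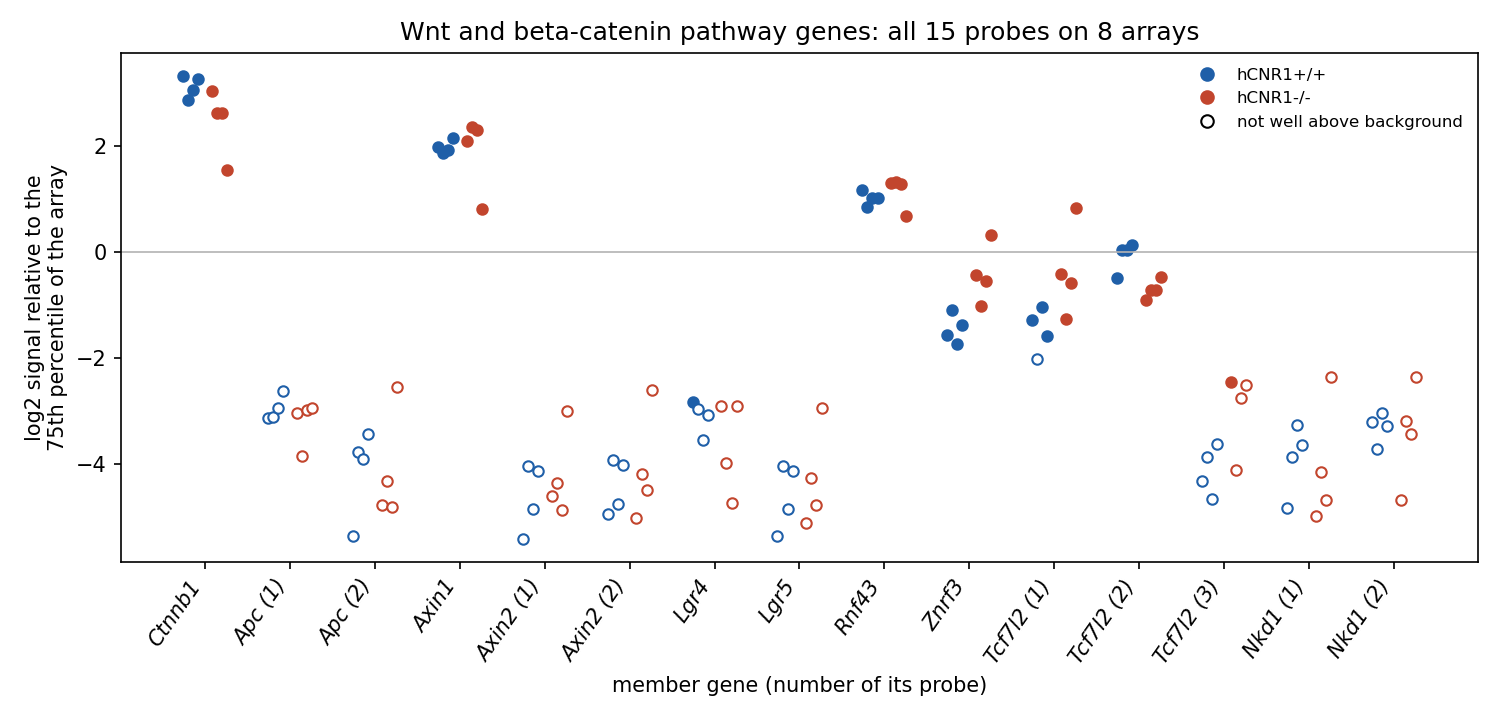
Log2 signal relative to the 75th percentile of the array (y axis) for the 15 probes of the 10 pathway genes (x axis, with the probes of a gene numbered), 1 point per mouse, hCNR1+/+ in blue and hCNR1-/- in red, filled where the probe was well above background on that array. The probes of Ctnnb1, Axin1, Rnf43 and Znrf3 and 2 of the 3 Tcf7l2 probes are filled on most or all arrays, while the probes of Apc, Axin2, Lgr5 and Nkd1 are open on all 8.

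No pathway member passed the adjusted threshold, and Znrf3 came nearest. At a Benjamini-Hochberg adjusted p below 0.05, limma called 0 of the 5 tested members, where it called 4.24% of all 11072 tested genes. At an unadjusted p below 0.05, 2 members passed, Znrf3 and Tcf7l2, and 21.6% of all tested genes did. At a fold change above 2 with an unadjusted p below 0.05, 1 member passed, Znrf3, against 8.53% of all tested genes in either direction and 4.78% on its higher side. Probe by probe, 0 of the 6 tested member probes were called at the adjusted threshold, against 4.64% of all 13998 tested probes, and 2 passed the fold-change threshold, against 8.75%. The median log2 fold change was -0.09 over the 5 tested members and 0.08 over all tested genes, with 3 members below 0 and 2 above. A fold change here is hCNR1-/- over hCNR1+/+ throughout.

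At the receptor level, Znrf3 and Rnf43 encode membrane ubiquitin ligases that remove Frizzled receptors from the cell surface, and R-spondins bound to Lgr receptors switch them off. Znrf3 read -1.56, -1.09, -1.74 and -1.37 in the 4 hCNR1+/+ mice and -0.43, -1.02, -0.55 and 0.32 in the 4 hCNR1-/- mice, and it was measured on all 8 arrays. Every hCNR1-/- value was above every hCNR1+/+ value, though hCNR1-/- replicate 2 was only just above hCNR1+/+ replicate 2, and 12.7% of all tested genes were likewise higher without overlap (17.8% in either direction). The means were -1.44 ± 0.28 (SD, n = 4) and -0.42 ± 0.56 (SD, n = 4), a log2 fold change of 1.02 with a standard error of 0.30 and a 95% interval of 0.35 to 1.69. This corresponds to a 2.03-fold difference (limma, adjusted p = 0.0867), and the exact two-sided permutation test over arrays gave p = 0.0286, the smallest that 4 against 4 arrays allow. Without hCNR1-/- replicate 4, the highest of the 8, the log2 fold change was 0.77. It was 0.46 without scaling between arrays and 0.31 after normexp background correction, a model-based correction of each spot by its local background (limma, adjusted p = 0.853 and 0.652).

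Rnf43 showed no such separation. Its probe read 1.17, 0.86, 1.03 and 1.02 in the 4 hCNR1+/+ mice and 1.31, 1.32, 1.30 and 0.68 in the 4 hCNR1-/- mice. The first 3 hCNR1-/- mice lay above all hCNR1+/+ mice and hCNR1-/- replicate 4 below them all. The log2 fold change was 0.13 with a 95% interval of -0.35 to 0.62 (limma, adjusted p = 0.749). Its sign depended on the scaling, since it was -0.42 without scaling between arrays, -0.0086 with the deposited z-scores and -0.027 with the 75th percentile taken over bright probes.

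In the destruction complex, Axin1, the scaffold that limits how much complex can form, read 1.98, 1.88, 1.94 and 2.16 in the 4 hCNR1+/+ mice and 2.10, 2.37, 2.30 and 0.82 in the 4 hCNR1-/- mice. Again 3 hCNR1-/- mice lay within or above the hCNR1+/+ range and replicate 4 far below it. The log2 fold change was -0.09 with a 95% interval of -0.85 to 0.67 (limma, adjusted p = 0.902). It was 0.27 without hCNR1-/- replicate 4, so the sign rests on that mouse.

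Ctnnb1, which encodes beta-catenin, the transcriptional effector of the pathway and also a part of cell junctions, read 3.33, 2.88, 3.06 and 3.28 in the 4 hCNR1+/+ mice. In the 4 hCNR1-/- mice it read 3.05, 2.63, 2.62 and 1.56. Only hCNR1-/- replicate 1 lay within the hCNR1+/+ range, and replicate 4 was the lowest by more than 1 log2 unit. The means were 3.14 ± 0.20 (SD, n = 4) and 2.47 ± 0.64 (SD, n = 4), and the log2 fold change of -0.67, with a standard error of 0.31 and a 95% interval of -1.38 to 0.03, did not pass the test (limma, adjusted p = 0.252). It was -0.37 without hCNR1-/- replicate 4 and below 0 under all 24 alternatives computed, from -1.23 to -0.32. Protein stability, the level at which the pathway is known to act on beta-catenin, was not measured by these arrays.

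**Figure D2:**
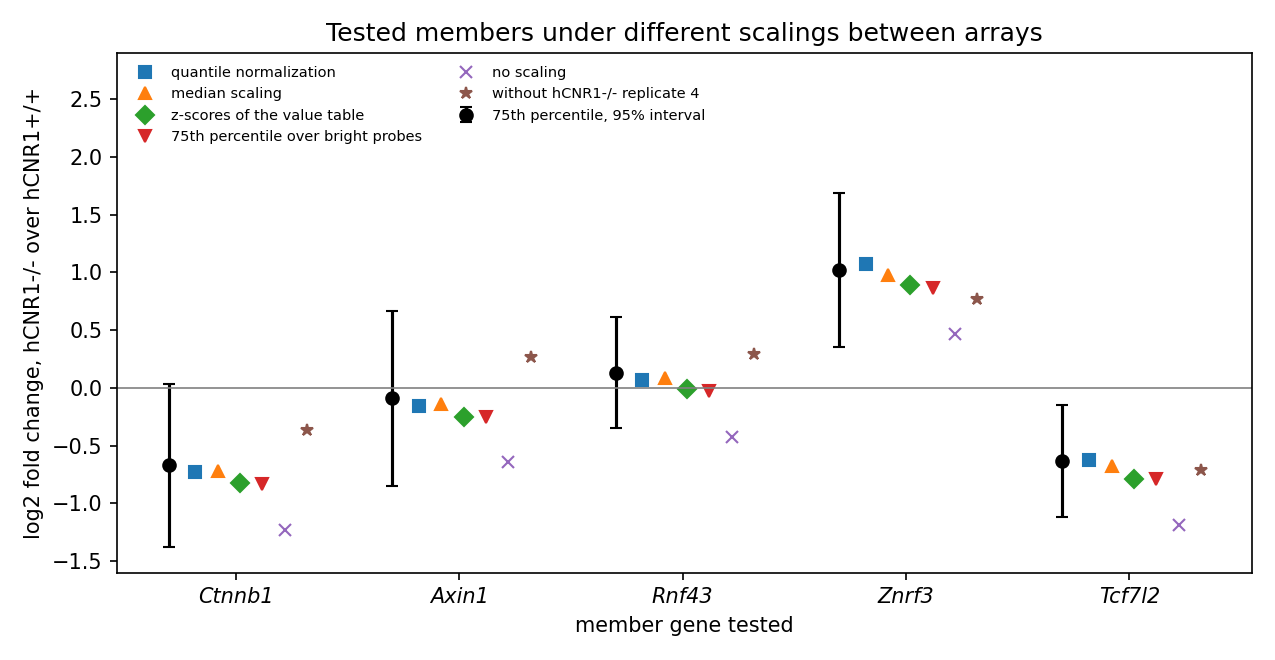
Log2 fold change of hCNR1-/- over hCNR1+/+ hepatocytes (y axis) for the 5 tested members (x axis), with the 95% interval of limma for the 75th-percentile scaling in black and, as other symbols, the same fold change under other scalings and without hCNR1-/- replicate 4. Znrf3 stays above 0 and Ctnnb1 and Tcf7l2 below 0 under all of them, while Axin1 and Rnf43 lie on both sides of 0.

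Tcf7l2 encodes the TCF factor through which beta-catenin reaches DNA in liver, and its probes did not move together. Of its 3 probes, 2 were tested, and it was the only member with more than 1 tested probe. The brighter probe, A_55_P2143724, annotated to the transcript NM_001142923, stood for the gene and read -0.49, 0.04, 0.05 and 0.14 in the 4 hCNR1+/+ mice and -0.90, -0.71, -0.71 and -0.46 in the 4 hCNR1-/- mice. The hCNR1-/- mice lay below the hCNR1+/+ mice except for hCNR1+/+ replicate 1, which was just below hCNR1-/- replicate 4. The means were -0.06 ± 0.29 (SD, n = 4) and -0.70 ± 0.18 (SD, n = 4), a log2 fold change of -0.63 with a standard error of 0.22 and a 95% interval of -1.12 to -0.15 (limma, adjusted p = 0.130). The exact two-sided permutation test gave p = 0.0571. With normexp the log2 fold change was -0.28 (limma, adjusted p = 0.654).

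The other tested probe, A_55_P2030160, annotated to the transcript NM_001142920, read -1.28, -2.02, -1.03 and -1.57 in the 4 hCNR1+/+ mice and -0.40, -1.25, -0.59 and 0.84 in the 4 hCNR1-/- mice. Here the hCNR1-/- mice were mostly the higher ones, with hCNR1-/- replicate 2 inside the hCNR1+/+ range. In the fit of all 13998 tested probes its log2 fold change was 1.13 with a standard error of 0.42 and a 95% interval of 0.18 to 2.07 (limma, adjusted p = 0.158), and it was 0.40 with normexp. This probe was measured on 3 of 4 hCNR1+/+ and 4 of 4 hCNR1-/- arrays. The third, A_55_P2260094, on NM_001142918, was measured on 0 of 4 and 1 of 4 and was not tested.

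The difference between the 2 tested Tcf7l2 probes within an array is free of the scaling by a percentile, the median or none. The signal of the NM_001142920 probe minus that of the NM_001142923 probe was -0.79, -2.06, -1.09 and -1.72 in the 4 hCNR1+/+ mice and 0.50, -0.54, 0.12 and 1.30 in the 4 hCNR1-/- mice. The 2 genotypes did not overlap, and the mean of this difference was 1.76 log2 units higher in hCNR1-/- than in hCNR1+/+ mice. This contrast was formed after the probe values had been seen and is given as a description, without a test. How often the probes of other genes differ in this way was not computed. The lowest value, -2.06 in hCNR1+/+ replicate 2, is from the array on which the NM_001142920 probe was not well above background. The contrast was 1.54 without that array, 1.44 without hCNR1-/- replicate 4 and 0.69 with normexp. When the tested probes of the gene were averaged, Tcf7l2 had a log2 fold change of 0.25 in place of -0.63.

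**Figure D3:**
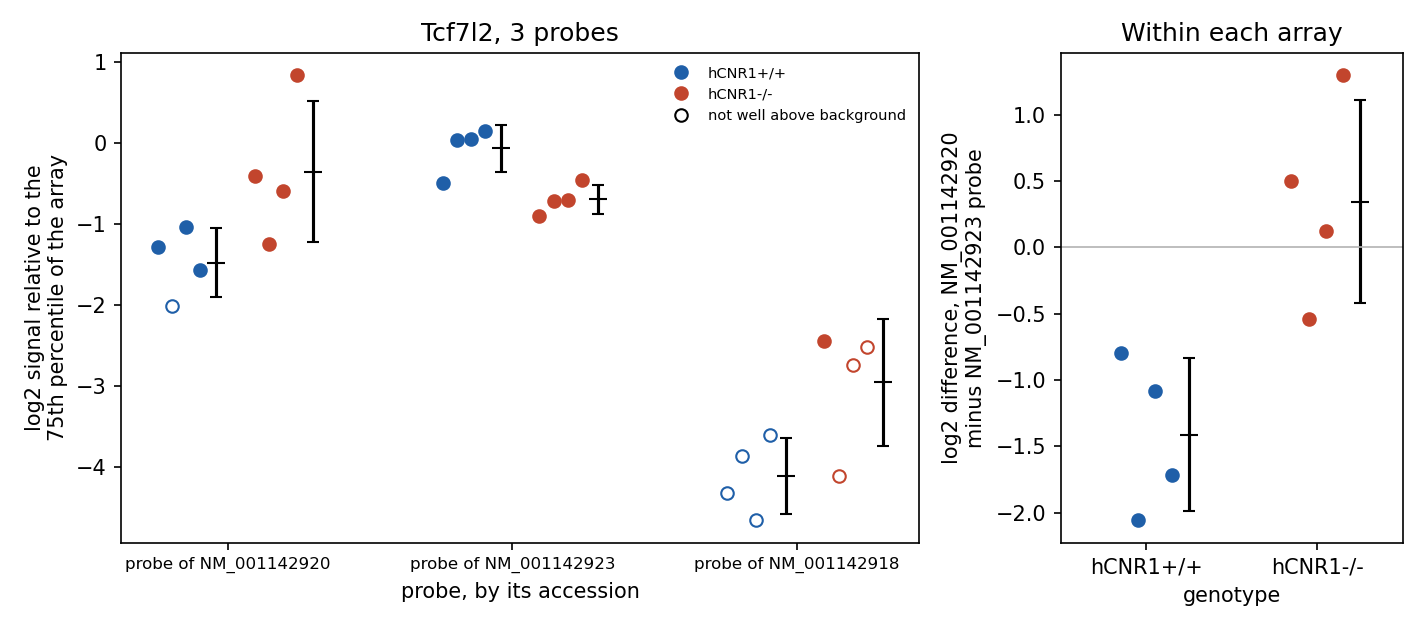
Left, log2 signal relative to the 75th percentile of the array (y axis) of the 3 Tcf7l2 probes (x axis, by the transcript each is annotated to), 1 point per mouse with hCNR1+/+ in blue and hCNR1-/- in red, filled where well above background, and the mean ± SD beside the points. Right, the signal of the NM_001142920 probe minus that of the NM_001142923 probe in each mouse, from -2.06 to -0.79 in hCNR1+/+ and from -0.54 to 1.30 in hCNR1-/- mice.

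The annotation lists 2 transcription starts for Tcf7l2, 153511 bases apart on chromosome 19, and the sequence before each is shown because the probes of this gene differed. Printed are the first 200 bases of each window from 250 bases before to 50 after the start. The bases nearest the start are thus left out. They are from RefSeq, build GRCm38.p6, plus strand, 5′ to 3′, with CpG dinucleotides in capitals. The first printed stretch is at chr19:55741560-55741759 and the second at chr19:55895071-55895270.
Tcf7l2 start 1: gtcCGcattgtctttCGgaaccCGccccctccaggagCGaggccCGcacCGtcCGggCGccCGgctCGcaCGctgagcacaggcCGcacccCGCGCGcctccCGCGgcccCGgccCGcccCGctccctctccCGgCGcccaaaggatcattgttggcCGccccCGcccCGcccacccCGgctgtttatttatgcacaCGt
Tcf7l2 start 2: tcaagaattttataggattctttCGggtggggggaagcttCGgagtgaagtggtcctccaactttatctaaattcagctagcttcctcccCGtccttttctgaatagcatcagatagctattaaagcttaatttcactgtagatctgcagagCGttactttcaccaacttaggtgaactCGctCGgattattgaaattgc
The first stretch held 27 CpG dinucleotides at 74.5% G and C, and the second held 6 at 42.0%. Among the first 200 bases of all 32851 windows, 96.47% held fewer CpG than the first stretch and 57.78% fewer than the second. The median stretch held 4 CpG, and the median G and C was 51.5%. Which of the starts gives the transcripts behind each probe is not given by the tables used here. The heptamer CTTTGAT, the core of the site that TCF factors are known to bind, was searched on both strands in the windows from 250 bases before to 50 after a start. It was in 0 of the 9 windows found for 6 of the 10 members and in 3.73% of all 32851 windows, which says only that these letters are not in those windows.

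The genes whose signal followed each tested member most closely over the 8 arrays were taken from the 8338 genes measured on all 8 arrays, by Pearson r, as a description without a test. For Ctnnb1 these were Msmo1 (r = 0.987), a sterol synthesis enzyme, and Fbxl17 (0.984), an F-box protein. For Axin1 they were Fam168b (r = 0.995) and Rsph3b (0.995). Rnf43 was most like Pi4ka (r = 0.983), a lipid kinase, and Crybg1 (0.979). Znrf3 was most like Arid2 (r = 0.984), a subunit of a chromatin remodelling complex, and Magi3 (0.977), a membrane scaffold. The brighter Tcf7l2 probe was most like Icosl (r = 0.959), a costimulatory ligand, and H2-Ab1 (0.938), an MHC class II chain. In Axin1 and Ctnnb1 much of the range over which these values were computed comes from hCNR1-/- replicate 4. That array was also the highest in Znrf3 and the lowest in Rnf43. All points share the array scaling.

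Around the members, 101 further pathway genes were looked up by role, and 59 of them could be tested. At an adjusted p below 0.05 limma called 3 lower in hCNR1-/- hepatocytes, Porcn, Tbl1xr1 and Nkd2, and 1 higher, Lrp6, against 1.3% lower and 2.94% higher among all tested genes. The median log2 fold change of the 59 was 0.11, with 22 below 0 and 37 above, beside 0.08 over all tested genes. Of the 42 not tested, 37 were measured on 0 of 8 arrays. The count of 4 rested on the scaling and on single arrays: it was 1 or 0 under 4 of the 5 other scalings and 10 without hCNR1-/- replicate 4.

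Among ligands and genes that handle them, 6 of 25 could be tested, Wnt1, Wnt5a, Wnt5b, Wnt9a, Wnt16 and Porcn, with a median log2 fold change of -0.17. Wnt2, Wnt9b and Rspo3, the endothelial signals of the central vein, were measured on 0 of 8 arrays each. Of the endothelial markers themselves 9 of 14 were tested and 0 called (limma), beside 4.24% of all tested genes. At an unadjusted p below 0.05 limma had 1 of them, beside 21.6% of all tested genes. Their median log2 fold change was -0.18, with 6 below 0 and 3 above, where 43.4% of all tested genes were below 0. Their summed signal was 5.54 to 6.60 in hCNR1+/+ and 5.86 to 8.23 in hCNR1-/- preparations. That sum came mostly from the brightest marker, Kdr, which read 8.18 in hCNR1-/- replicate 4. Porcn, the acyltransferase that adds the lipid without which Wnt proteins are not secreted, read 2.77, 2.40, 2.88 and 2.49 in the 4 hCNR1+/+ mice and 1.35, 1.62, 1.54 and 1.97 in the 4 hCNR1-/- mice. All hCNR1-/- values were below all hCNR1+/+ values, as in 5.04% of all tested genes, and the log2 fold change was -1.01 with a standard error of 0.22 (limma, adjusted p = 0.0376). With quantile normalization it was -1.03 and without scaling -1.57 (limma, adjusted p = 0.0687 and 0.545).

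Of 16 receptors and co-receptors 10 were tested, with a median of 0.20, 1 of them called. Lrp6, the co-receptor that carries the Wnt signal into the cell and the only pathway gene called higher, read 1.20, 1.91, 0.94 and 1.47 in the 4 hCNR1+/+ mice and 2.49, 2.17, 3.21 and 3.26 in the 4 hCNR1-/- mice. The genotypes did not overlap, as in 12.7% of all tested genes on the higher side (17.8% in either direction). The log2 fold change was 1.41 with a standard error of 0.32 (limma, adjusted p = 0.0432), from the 1 of its 2 probes that was tested. With quantile normalization it was 1.36 and without scaling 0.85 (limma, adjusted p = 0.0870 and 0.817). Fzd7, a Frizzled receptor, was past the fold-change threshold on the other side, with means of -0.87 ± 0.62 (SD, n = 4) and -2.20 ± 0.71 (SD, n = 4) and a log2 fold change of -1.33 (limma, adjusted p = 0.0999), which was -0.34 with normexp.

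All 20 genes of the cytoplasmic relay and the destruction complex, among them Dvl and Gsk3 genes, were tested, with a median of 0.14 and 0 called at the adjusted threshold (limma, 6 at an unadjusted p below 0.05, which 21.6% of all tested genes passed). Past a fold change of 2 with an unadjusted p below 0.05 were 2 of them. Frat1, which binds and inhibits the kinase Gsk3, read from 0.67 to 1.60 in hCNR1+/+ and from -0.27 to 0.22 in hCNR1-/- mice, and its log2 fold change was -1.03 (limma, adjusted p = 0.0507), or -0.61 with normexp. Tnks, a tankyrase that marks Axin for degradation, was measured on 1 of 4 hCNR1+/+ and 3 of 4 hCNR1-/- arrays, so it entered the test mostly through the genotype in which it read higher. It read from -2.98 to -1.93 in hCNR1+/+ and from -1.88 to -0.92 in hCNR1-/- mice, and its log2 fold change of 1.03 (limma, adjusted p = 0.0928) was 0.38 with normexp.

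Among nuclear partners 16 of 19 were tested, with a median of 0.17 and 1 called. Tbl1xr1, a subunit of the co-repressor complex that beta-catenin also engages, read 0.83, 0.50, 0.34 and 1.18 in the 4 hCNR1+/+ mice and -0.16, -0.57, -0.11 and -0.77 in the 4 hCNR1-/- mice. The groups did not overlap, as in 5.04% of all tested genes on the lower side. The log2 fold change was -1.11 with a standard error of 0.26 (limma, adjusted p = 0.0466). With its 2 probes, both below 0, averaged, it was -0.63 (limma, adjusted p = 0.142), and with normexp -0.59 (limma, adjusted p = 0.261). The 4 tested of 5 adherens junction partners had a median of -0.13 and 0 calls (limma, 0 at an unadjusted p below 0.05).

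Of 16 secreted and membrane inhibitors only 3 were tested, Notum, Kremen1 and Nkd2, and the called one had the lowest fold change of the pathway. Nkd2, the paralog of the member Nkd1 and an inhibitor of Dishevelled, read 2.67, 2.95, 2.73 and 3.96 in the 4 hCNR1+/+ mice and 0.67, 1.25, 1.46 and 0.76 in the 4 hCNR1-/- mice. The groups lay more than 1 log2 unit apart, and 5.04% of all tested genes were lower without overlap. The means were 3.08 ± 0.60 (SD, n = 4) and 1.04 ± 0.38 (SD, n = 4), and Nkd2 fell by 2.04 on the log2 scale, with a standard error of 0.33 and a 95% interval of -2.78 to -1.30 (limma, adjusted p = 0.0175). It was below 0 under all 24 alternatives, from -2.60 to -1.64, with adjusted p-values up to 0.107.

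**Figure D4:**
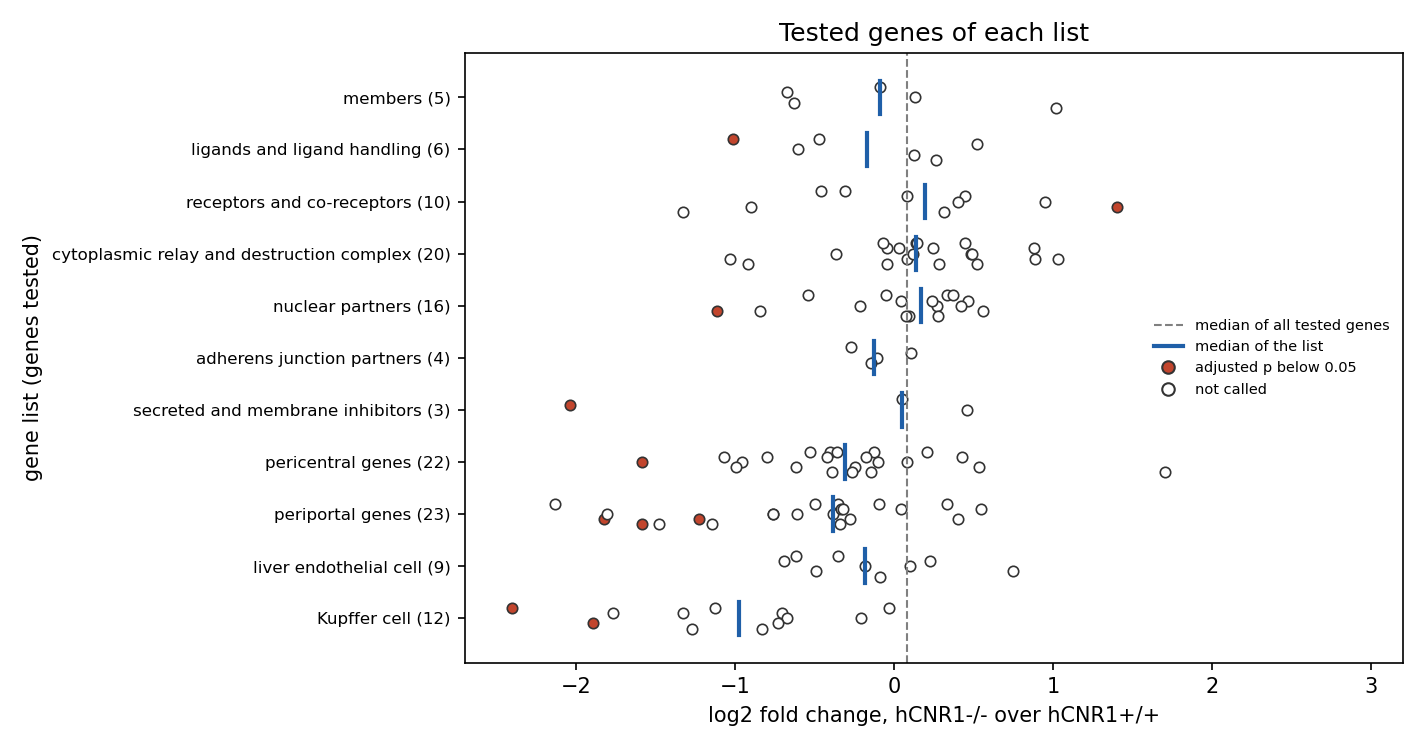
Log2 fold change of hCNR1-/- over hCNR1+/+ hepatocytes (x axis) for each tested gene of the pathway lists, the zonation lists and the endothelial and Kupffer cell markers (y axis, with the number tested), filled in red at an adjusted p below 0.05. The blue bar is the median of the list and the dashed line the median of all 11072 tested genes, 0.08, from which the members and pathway lists stay near and the Kupffer cell markers, at a median of -0.98, lie farthest.

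In both zones of the liver lobule that the pathway sets apart, the median fold change was below that of all tested genes. Of 24 pericentral genes 22 were tested, with a median log2 fold change of -0.31, 17 below 0 and 5 above, where 43.4% of all tested genes were below 0. Of 23 periportal genes all were tested, with a median of -0.39, 19 below 0 and 4 above. At a fold change above 2 with an unadjusted p below 0.05 (limma), 2 pericentral genes were lower and 1 higher. Of the periportal genes 7 were lower and 0 higher, against 3.75% lower and 4.78% higher among all tested genes. Limma called 1 pericentral and 3 periportal genes at the adjusted threshold, all lower, against 1.3% lower among all tested genes. These adjusted counts ran from 0 to 4 and from 0 to 8 over the alternatives. The difference between the zones was not tested.

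The best-known pericentral enzymes, which depend on beta-catenin in liver, did not pass the test. Glul, glutamine synthetase, confined to the last hepatocytes around the central vein, read 4.84, 5.17, 5.25 and 5.65 in the 4 hCNR1+/+ mice and 4.64, 5.89, 5.65 and 3.75 in the 4 hCNR1-/- mice. The hCNR1-/- mice lay on both sides of the hCNR1+/+ mice, with a log2 fold change of -0.24, 0.17 without hCNR1-/- replicate 4 (limma, adjusted p = 0.777 with all arrays). The cytochrome P450 Cyp2e1 had a log2 fold change of 0.08 (limma, adjusted p = 0.894), which turned to -0.28 with quantile normalization and to -0.48 without scaling. Its 2 tested probes went opposite ways, and their mean gave -0.11 (limma, adjusted p = 0.854). Cyp1a2, another P450, had -0.62 (limma, adjusted p = 0.397), and Oat, ornithine aminotransferase, had -0.99 (limma, adjusted p = 0.242). In Oat the groups did not overlap, as in 5.04% of all tested genes on the lower side, with hCNR1+/+ values from 3.68 to 4.50 and hCNR1-/- values from 1.47 to 3.66.

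Slc1a2, a glutamate transporter of pericentral hepatocytes, was the pericentral gene called. It read 2.52, 2.36, 2.59 and 3.49 in the 4 hCNR1+/+ mice and 0.52, 1.36, 1.20 and 1.53 in the 4 hCNR1-/- mice. It fell by 1.58 on the log2 scale, with a standard error of 0.32 (limma, adjusted p = 0.0309). Past the fold-change threshold alone were Slc13a3, a dicarboxylate transporter, at -1.07 (limma, adjusted p = 0.154), and Slco1b2, an organic anion transporter, at 1.70 (limma, adjusted p = 0.0628).

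On the periportal side, Etnppl, an ethanolamine phosphate lyase, had means of 0.24 ± 0.56 (SD, n = 4) and -1.59 ± 0.09 (SD, n = 4) and fell by 1.83 on the log2 scale (limma, adjusted p = 0.0159), though with normexp the value was -0.73 (limma, adjusted p = 0.260). Hsd17b13, a lipid droplet enzyme, went from 5.35 ± 0.44 (SD, n = 4) to 3.76 ± 0.44 (SD, n = 4) and fell by 1.59 (limma, adjusted p = 0.0269). Hal, histidine ammonia-lyase, went from 4.19 ± 0.49 (SD, n = 4) to 2.96 ± 0.20 (SD, n = 4) and fell by 1.23 (limma, adjusted p = 0.0390). In each of the 3 the genotypes did not overlap, as in 5.04% of all tested genes on the lower side. Cyp2f2 at -0.76 (limma, adjusted p = 0.395) and Cps1, the entry enzyme of the urea cycle, at -0.35 (limma, adjusted p = 0.568) overlapped between the genotypes. Of the 12 tested Kupffer cell markers limma called 2 lower, beside 1.3% of all tested genes. They were Marco at -2.41 (limma, adjusted p = 0.0336) and Ctss at -1.89 (limma, adjusted p = 0.0124), named after their values were seen. The part of such cells in the fold changes of the zonation genes was not tested.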

How the data were processed

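Members and gene lists were chosen with earlier results of these data known. The authors deposited, for each of 8 one-colour arrays, the spot intensity written by Agilent Feature Extraction, corrected for background within the array and not scaled between arrays. The score per spot in the deposited value table differed by at most 0.005 from a within-array z-score of the log intensity. The study's methods name no scaling or test for the arrays, and its legend gives fewer arrays per genotype than the labels, so all 8 were used.

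From log2 intensities, each array's 75th percentile over 59305 non-control spots was subtracted. Outlier spots were dropped and the spots of a probe averaged. A probe counted as well above background with 50% or more of its spots flagged so. Accessions were matched to RefSeq symbols (GRCm38.p6, while the array design names mm9, so no gene coordinates are given beyond the promoter windows of that table). Each of 11072 genes was tested with its brightest probe (limma 3.58.1, R 4.3.3, lmFit and eBayes, two-sided, Benjamini-Hochberg), after the fit was tested on simulated data. The 5 tested members, and no other named genes, had an exact permutation test over 70 assignments. Named were all members, the genes called in each pathway or zonation list, in lists with fewer than 3 calls up to 4 genes past the fold-change threshold, and fixed zonation markers. A summed signal of markers is log2 of the sum over the tested markers. Alternatives were other scalings, the z-scores (multiplied by the mean SD, 3.46), normexp on the median signal, other filters, probe choices and variance models, array weights, a replicate block and arrays left out.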

Additional observations from a re-analysis of the deposited data

Results flagged for a closer look

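In 3 of 54 groups of 4 arrays, 1 array lay far from the other 3 by Dixon's ratio, which divides its distance from the nearest array by the range of the 4, and chance passes about 1 in 20 groups. For Rnf43, hCNR1-/- replicate 4 read 0.68 on the log2 scale where the other hCNR1-/- mice read 1.30 to 1.32 (ratio 0.968). For the brighter Tcf7l2 probe, hCNR1+/+ replicate 1 read -0.49 where the other hCNR1+/+ mice read 0.04 to 0.14 (ratio 0.834). For Oat, hCNR1+/+ replicate 4 read 4.50 where the other hCNR1+/+ mice read 3.68 to 3.73 (ratio 0.940).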

How the results depend on the processing

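Signal over background limited the members, since 9 of the 15 probes were too dim to test. Many counts moved when a single array was left out. Without hCNR1-/- replicate 4 the count in the wider pathway list rose, while the pericentral and periportal counts did not change. Calls at an adjusted p below 0.05 among the 10 members, 0 in the report, were 2 with array weights, 1 without replicate 4 of both genotypes, and 0 to 1 with single arrays left out, the 1 being Tcf7l2 without hCNR1-/- replicate 4. Members past a fold change of 2, 1 in the report, were 0 with median scaling, no scaling, z-scores, normexp, array weights, without replicate 4 of both genotypes and with the 75th percentile over bright probes (added after the data had been seen), 2 with each probe on its own, and 0 to 1 with single arrays left out (0 without hCNR1+/+ replicate 1 or 3 or hCNR1-/- replicate 4).

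Calls in the wider pathway list, 4 in the report, were 1 with quantile normalization and with z-scores, 0 with median scaling, no scaling, normexp and no filter on dim probes, 13 with array weights, 11 without replicate 4 of both genotypes, and 0 to 10 with single arrays left out (10 without hCNR1-/- replicate 4, 0 or 1 without any other). Pericentral calls, 1 in the report, were 0 with median scaling, no scaling, normexp, no filter and an ordinary linear model, 4 with array weights and without replicate 4 of both genotypes, and 0 to 1 with single arrays left out (0 without any array but hCNR1-/- replicate 4). Periportal calls, 3 in the report, were 5 with quantile normalization and with each probe on its own, 1 with z-scores and an ordinary linear model, 0 with median scaling, no scaling, normexp and no filter, 8 with array weights and without replicate 4 of both genotypes, and 0 to 3 with single arrays left out (0 or 1 without hCNR1+/+ replicate 1 or 3 or hCNR1-/- replicates 1 to 3).

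With array weights and without replicate 4 of both genotypes, the log2 fold change passed the adjusted threshold for Znrf3, at 0.87 and 0.80, and with array weights and without hCNR1-/- replicate 4 for Tcf7l2, at -0.71 and -0.71. Without single arrays Znrf3 lay between 0.77 and 1.22, Tcf7l2 between -0.77 and -0.56, Ctnnb1 between -0.87 and -0.37, Rnf43 between 0.08 and 0.29 and Axin1 between -0.25 and 0.27. With array weights, without hCNR1-/- replicate 4 and without replicate 4 of both genotypes, the sign turned for Axin1, at 0.29, 0.27 and 0.33, and for Glul, at 0.21, 0.17 and 0.31 (-0.55 to 0.17 without single arrays). Rnf43 turned to -0.42 without scaling, -0.0086 with z-scores and -0.027 with bright probes, and Tcf7l2 to 0.25 with the mean of its probes. Cyp2e1 turned to -0.28 with quantile normalization, -0.48 without scaling, -0.0051 with normexp, -0.11 with the mean of its probes, -0.078 with bright probes, -0.074 without hCNR1+/+ replicate 1 and -0.021 without hCNR1-/- replicate 2, and Cps1 to 0.065 without replicate 4 of both genotypes. The difference between the Tcf7l2 probes moved to 0.69 with normexp, which also gave Znrf3 0.31 (0.46 without scaling). The causes were not tested.

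The replicate numbers are shared by both genotypes and are also slide columns. Deviations of same-numbered arrays correlated at 0.21, -0.16, -0.05 and 0.02, and those of differently numbered arrays at -0.19 to 0.18. The labels name no pairs, and so few arrays cannot show whether they were paired. With the replicate block the calls were 0 among the members, 0 in the wider pathway list, 0 pericentral and 0 periportal.

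Over all genes, limma called 144 lower and 325 higher at the adjusted threshold. The counts were 87 and 131 with quantile normalization, 25 and 25 with median scaling, 29 and 1 without scaling, 51 and 30 with z-scores, 13 and 28 with normexp, 14 and 8 with no filter, 54 and 341 with a filter on all 8 arrays, 70 and 319 with an ordinary linear model, 646 and 2176 with array weights, 480 and 1701 without replicate 4 of both genotypes, 209 and 101 with bright probes, 0 and 0 with the replicate block (397 and 538 past a fold change of 2 with an unadjusted p below 0.05), and 25 to 323 and 13 to 1121 with single arrays left out. Without scaling the median over all genes was -0.47, beside 0.08.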
